A study of Danio rerio with 16 samples.

Results

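The genes cdh17, mecom and osr1 were followed across whole zebrafish embryos with reduced Gata5, Gata6 or both. They are 3 of the 25530 genes listed in all 16 libraries, found by their Ensembl identifiers (ENSDARG00000005112 for cdh17, ENSDARG00000060808 for mecom and ENSDARG00000014091 for osr1). They were picked as kidney genes whose levels changed in morphants, from the same libraries described here. Their differences between morphants and WT, and between kinds of morphant, are therefore given as values without a test.

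The embryos were Gata5/6 morphants, Gata6 morphants, Gata5 morphants or WT, each collected at bud, the end of gastrulation, or at 6-somites, when the first somites have formed. A morphant is an embryo injected with an antisense morpholino, which blocks translation or splicing of its target in every cell it reaches. Gata5/6 morphants carry the label of both targets. Morpholino sequences, doses, a control injection and the zebrafish strain are not given in the labels, so WT may or may not have been injected. Each of the 8 groups held 2 libraries, made from polyA RNA of 40 pooled whole embryos. Nothing states that the 2 pools of a group came from separate clutches, so p-values measure the spread between these pools. Because whole embryos were pooled, fewer cells of a type and less RNA per cell cannot be told apart, and neither can more cells and more RNA.

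The zebrafish pronephros, the first kidney of the embryo, forms from the intermediate mesoderm, a strip that lies beside the progenitors of blood, vessels and heart. osr1 encodes a zinc finger transcription factor that acts early in this strip and is needed for kidney and vascular progenitors. mecom, also called evi1 or prdm3, encodes a zinc finger factor of the PR domain family that patterns nephron segments in zebrafish and acts in blood stem cells. cdh17 encodes cadherin-17, an adhesion protein of the pronephric tubule and duct epithelium, and is used as a marker of that epithelium. Gata5 and Gata6 are zinc finger factors that act in heart, endoderm and extraembryonic lineages.

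Levels are in RPKM (reads per kilobase of the gene model, scaled to library size), so they can be compared between genes on a per-length scale. Library size recovered from the values was 19.7 to 30.8 M reads. cdh17 was covered by 67 to 1236 reads per library, mecom by 110 to 691 and osr1 by 206 to 787. The counting error of a single value was thus 2.84% to 12.2% for cdh17, 3.804% to 9.53% for mecom and 3.56% to 6.97% for osr1. These errors do not include differences between pools. The first principal component of all 14751 tested genes held 50.5% of the variance and separated the stages. The log2 difference between the 2 libraries of a group had an SD over genes of 0.341 to 0.475 at bud and 0.183 to 0.228 at 6-somites, so bud values were less precise. The targeted gene gata5 was at 158 and 161 RPKM in Gata5/6 morphants and 114 and 106 RPKM in Gata5 morphants at bud, against 46.3 and 52.9 RPKM in WT, so its mRNA was not lower in these morphants. The other targeted gene, gata6, was not analysed here.

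cdh17 showed the widest range of the 3 genes and was high wherever the Gata6 morpholino was labelled. At bud it was at 12.1 and 6.64 RPKM in Gata5/6 morphants, 6.67 and 4.97 RPKM in Gata6 morphants and 0.606 and 0.612 RPKM in Gata5 morphants, against 0.598 and 0.818 RPKM in WT. All 4 libraries with the Gata6 label stood above both WT libraries, while the Gata5 morphants overlapped with WT. The Gata5/6 mean was 13.2 times and the Gata6 mean 8.22 times the WT mean, and the Gata5 mean was 0.860 of it. The 2 Gata5/6 pools at bud were far apart (9.38 ± 3.87 RPKM, SD, n = 2), although they rested on 944 and 714 reads. The lower of them overlapped with the Gata6 morphants.

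At 6-somites cdh17 was at 10.2 and 11.4 RPKM in Gata5/6 morphants, 8.16 and 7.90 RPKM in Gata6 morphants and 2.08 and 2.13 RPKM in Gata5 morphants, against 2.81 and 2.38 RPKM in WT. Here no pair of groups overlapped, and the order was Gata5/6, Gata6, WT and Gata5. The ratios to WT were 4.16 in Gata5/6 morphants, 3.09 in Gata6 morphants and 0.811 in Gata5 morphants. The ratios of the groups with the Gata6 label were smaller than at bud, and the WT level itself was higher at 6-somites. Over all 8 groups the lowest was Gata5 morphants at bud (0.609 ± 0.00439 RPKM) and the highest Gata5/6 morphants at 6-somites (10.8 ± 0.849 RPKM). Going down that order from the top, the overlapping neighbours were Gata5/6 at 6-somites with Gata5/6 at bud, Gata5/6 at bud with Gata6 at 6-somites, and WT at bud with Gata5 at bud.

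mecom followed another pattern, in which both single morphants at bud lay above WT. Its levels at bud were 3.96 and 3.07 RPKM in Gata5/6 morphants, 1.60 and 1.93 RPKM in Gata6 morphants and 1.76 and 1.57 RPKM in Gata5 morphants, against 0.750 and 0.821 RPKM in WT. All 6 morphant libraries exceeded both WT libraries, both single morphants overlapped with each other, and the Gata5/6 libraries stood above every single morphant library. The means were 4.48 times WT in Gata5/6 morphants, 2.25 times in Gata6 morphants and 2.12 times in Gata5 morphants.

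At 6-somites the Gata5 morphants held the most mecom of all 8 groups. Their libraries were at 4.78 and 5.21 RPKM, beside 3.28 and 3.74 RPKM in Gata5/6 morphants, 3.04 and 2.48 RPKM in Gata6 morphants and 3.25 and 2.95 RPKM in WT. The Gata6 morphants overlapped with WT, and the lower Gata5/6 library was just above the higher WT library. Relative to WT the means were 1.61 times in Gata5 morphants, 1.13 times in Gata5/6 morphants and 0.891 in Gata6 morphants. mecom was thus lower in Gata5/6 morphants than in Gata5 morphants at 6-somites (0.703 of their mean), whereas at bud it was 2.11 times as high. Down the order of all 8 groups, which ends with WT at bud, the overlapping neighbours in mecom were Gata5/6 at bud with Gata5/6 at 6-somites, Gata6 with WT at 6-somites, and Gata6 with Gata5 at bud.

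**Figure D1:**
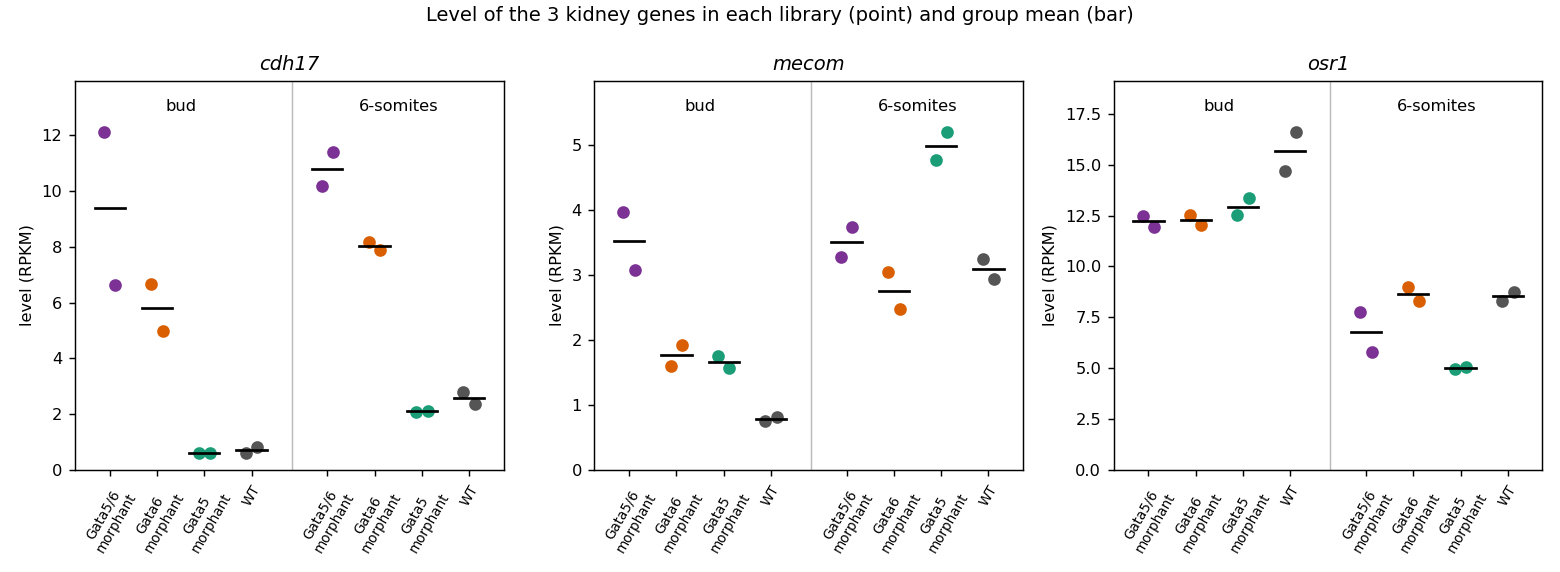
RPKM of cdh17, mecom and osr1 (3 panels) in each library (points) with the group mean (bars), by morphant group and stage, each on a linear axis from 0. cdh17 is high in the Gata5/6 and Gata6 groups at both stages, mecom is above WT in all morphants at bud, and osr1 is lower at 6-somites than at bud in every group.

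osr1 was the most abundant of the 3 in WT, and its widest ratio to WT was smaller than that of cdh17 or mecom. At bud it was at 12.5 and 11.9 RPKM in Gata5/6 morphants, 12.5 and 12.02 RPKM in Gata6 morphants and 12.5 and 13.4 RPKM in Gata5 morphants, against 14.7 and 16.6 RPKM in WT. The Gata6 morphants overlapped with both other morphant groups, and the higher Gata5/6 library was just below the lower Gata5 library. All 6 morphant libraries lay below both WT libraries, with means of 0.780, 0.783 and 0.827 of the WT mean in Gata5/6, Gata6 and Gata5 morphants. At 6-somites osr1 was at 7.77 and 5.81 RPKM in Gata5/6 morphants, 9.01 and 8.30 RPKM in Gata6 morphants and 4.97 and 5.08 RPKM in Gata5 morphants, against 8.29 and 8.76 RPKM in WT. The Gata6 morphants now overlapped with WT (1.015 of the WT mean), while the Gata5/6 morphants (0.797) and the Gata5 morphants (0.589) lay below it without overlap. Over all 8 groups osr1 ran from WT at bud down to Gata5 morphants at 6-somites, and the overlapping neighbours were Gata5 with Gata6 at bud, Gata6 with Gata5/6 at bud, and Gata6 with WT at 6-somites.

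Across the morphant comparisons with WT, the libraries did not overlap for all 3 genes in Gata5/6 morphants at bud and in Gata6 morphants at bud, in each case with cdh17 and mecom above and osr1 below. Over all tested genes the libraries did not overlap for 40.5% in Gata5/6 morphants and for 38.7% in Gata6 morphants at bud. In Gata5 morphants at bud 2 of the 3 did not overlap, mecom above and osr1 below, against 36% of all genes. At 6-somites the Gata5/6 and the Gata5 libraries did not overlap with WT for any of the 3 genes, against 60.3% and 57% of all genes, and the Gata6 libraries for cdh17 alone, against 50.9%. Non-overlap of 2 libraries with 2 others was thus common in this series, and since the members were chosen on these contrasts nothing is read from their counts. All 6 comparisons with WT share the WT libraries of their stage, so they are not independent of each other.

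The order of the 3 genes in mean RPKM was osr1, mecom and cdh17 in Gata5 morphants and WT at both stages. It was osr1, cdh17 and mecom in Gata5/6 and Gata6 morphants at bud and in Gata6 morphants at 6-somites. Some of these means were close. In Gata5 6-somites 2 mecom was at 5.21 and osr1 at 5.08 RPKM. In WT at bud mecom (0.750 and 0.821 RPKM) overlapped with cdh17 (0.598 and 0.818 RPKM). At bud osr1 was 1.30 times cdh17 in RPKM in Gata5/6 morphants and 2.11 times in Gata6 morphants, but 21.3 times in Gata5 morphants and 22.1 times in WT. At 6-somites cdh17 was the higher gene in Gata5/6 morphants, at 1.59 times osr1, whereas osr1 was 1.08 times cdh17 in Gata6 morphants and 2.39 times in Gata5 morphants, against 3.29 times in WT. Among all genes listed in the 16 libraries, cdh17 stood at the 80.7th percentile of mean RPKM in Gata5/6 morphants at bud and at the 47.1st in WT.

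Set beside each other on the scale log2(RPKM + 1), the difference of the Gata5/6 morphants from WT was not the same multiple of the single morphant differences in the 3 genes. For cdh17 at bud it was 2.55 in Gata5/6 morphants, 1.99 in Gata6 morphants and -0.08 in Gata5 morphants, so the double exceeded the sum of the singles (1.91) by 0.65. At 6-somites the corresponding differences of cdh17 were 1.71, 1.33 and -0.21, and the double exceeded the sum (1.12) by 0.59. With the lower of the Gata5/6 pools alone, the difference of cdh17 at bud was 2.16.

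For mecom at bud the Gata5/6 difference of 1.33 was close to the sum of 0.63 in Gata6 and 0.58 in Gata5 morphants (1.21), and at 6-somites the Gata5/6 difference of 0.14 lay 0.28 below the sum of -0.13 and 0.55. For osr1 at bud the Gata5/6 difference of -0.33 was smaller in size than the sum of -0.33 in Gata6 and -0.25 in Gata5 morphants (-0.58). At 6-somites it was -0.30 in Gata5/6 morphants, 0.02 in Gata6 morphants and -0.66 in Gata5 morphants. The Gata5/6 morphants at 6-somites thus lay nearer to WT in osr1 than the Gata5 morphants, with 1.35 times their mean. These comparisons share their WT and double morphant libraries and were not tested. The pseudocount of 1 RPKM compresses low values, and with 0.1 RPKM the differences of cdh17 from WT at bud were 3.50 in Gata5/6 and 2.87 in Gata6 morphants.

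**Figure D2:**
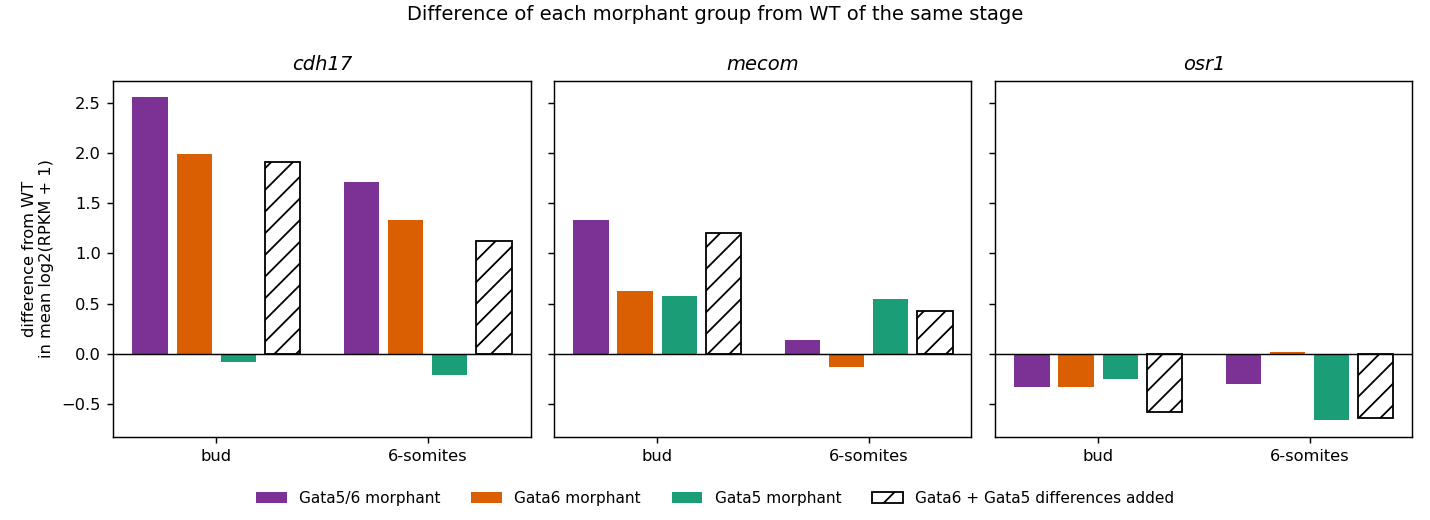
Difference from WT of the same stage in mean log2(RPKM + 1) for cdh17, mecom and osr1 (3 panels) in Gata5/6, Gata6 and Gata5 morphants, with the sum of both single morphant differences (hatched). For cdh17 the Gata5/6 bar exceeds the sum at both stages, for mecom it is near the sum at bud, and for osr1 it is smaller in size than the sum.

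Change with developmental stage was not the contrast that chose the genes and was tested with limma over all 14751 genes, although on the same libraries. The WT and morphant levels that chose the genes also make up these stage changes. Nothing is therefore read from which genotypes passed the test. cdh17 was called higher at 6-somites in Gata5 morphants and in WT, and mecom in these and in Gata6 morphants. osr1 fell in all 4 genotypes. Between 6-somites and bud the Gata5/6 morphants differed past the test in osr1 alone of the 3. osr1 was at 6.79 RPKM at 6-somites and 12.2 RPKM at bud (ratio 0.556, log2 change -0.77 ± 0.12, SE, limma adjusted p = 0.00109), where 21.3% of all genes were called. mecom had 3.51 RPKM at 6-somites and 3.52 RPKM at bud (0.00 ± 0.13, adjusted p = 0.994). cdh17 had 10.8 RPKM at 6-somites and 9.38 RPKM at bud (0.23 ± 0.21, adjusted p = 0.467). That value rested on the pools at bud, since it was 0.62 with adjusted p = 0.0332 without Gata5/6 bud 1 and -0.16 without Gata5/6 bud 2.

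In Gata6 morphants cdh17 was 1.38 times as high at 6-somites as at bud and did not pass the test (0.42 ± 0.21, adjusted p = 0.184). mecom rose 1.56-fold (0.44 ± 0.13, adjusted p = 0.0361) and osr1 fell to 0.706 of its bud level (-0.46 ± 0.12, adjusted p = 0.0241), where 18.5% of all genes were called. Leaving out any 1 of the 4 Gata6 libraries ended the mecom call, with adjusted p of 0.0572 to 0.225, as did median-of-ratios scaling (adjusted p = 0.0773) and testing without a filter (adjusted p = 0.0682). The osr1 call was lost without Gata6 bud 2 or either 6-somites library, with adjusted p up to 0.153.

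In Gata5 morphants all 3 genes passed the test, cdh17 and mecom higher and osr1 lower at 6-somites, where 26.9% of all genes were called. cdh17 was 3.45 times as high at 6-somites as at bud (log2 change 0.95 ± 0.21, adjusted p = 0.00582) and mecom was at 4.99 RPKM at 6-somites and 1.66 RPKM at bud (1.17 ± 0.13, adjusted p = 7.08e-05). osr1 was at 0.388 of its bud level (-1.21 ± 0.12, adjusted p = 3.62e-05), which placed it at the 0.854th percentile of all log2 changes. These calls held in each of the 4 omissions of a single Gata5 library, with adjusted p up to 0.0409.

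In WT all 3 genes passed the test. The mean level of cdh17 was 2.59 RPKM at 6-somites and 0.708 RPKM at bud in WT, a ratio of 3.66 and a log2 change of 1.07 ± 0.21 (adjusted p = 0.00258). mecom was at 3.096 RPKM at 6-somites and 0.785 RPKM at bud (ratio 3.94, log2 change 1.20 ± 0.13, adjusted p = 4.98e-05). osr1 was at 8.53 RPKM at 6-somites and 15.7 RPKM at bud (ratio 0.545, log2 change -0.80 ± 0.12, adjusted p = 0.000516). The test called 29.9% of all genes in this comparison, 20.3% higher and 9.57% lower, so a call between stages was common. cdh17 and mecom stood at the 95.1st and 96.2nd percentile of all log2 changes in WT and osr1 at the 3.89th. Whether the stage change of these genes differs between genotypes was not tested, because that difference is made of the morphant contrasts that chose them.

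**Figure D3:**
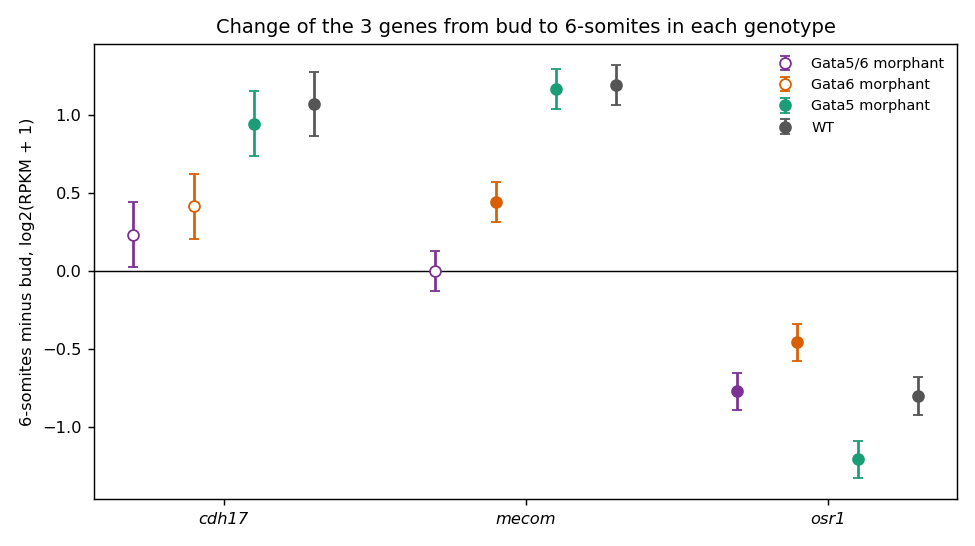
Log2 change of cdh17, mecom and osr1 at 6-somites minus bud on the scale log2(RPKM + 1), by genotype, with bars of 1 SE from limma. Filled points had an adjusted p under 0.05. Filled points above 0 are cdh17 in WT and Gata5 morphants and mecom in WT, Gata5 and Gata6 morphants. osr1 fell in all 4 genotypes. Nothing is read from which genotypes have filled points, because the levels that chose the genes make up these changes.

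The other genes of kidney development and function were read from lists of 100 symbols. Of these, 96 had an identifier, 93 identifiers were listed in all 16 libraries and 60 passed the filter of 1 RPKM in at least 2 libraries. The 60 comprised 37 regulators, 17 genes of epithelium and transport and 6 podocyte genes, podocytes being the filtering cells of the glomerulus. Of them, 12 share a symbol with another identifier, as zebrafish pairs such as pax2 and tbx2 do, so the copy is given by its identifier.

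Few of these kidney genes passed the test against WT in any morphant group. In Gata5/6 morphants at bud 2 of 60 were called higher and 2 lower, where 0.766% of all genes were called higher and 0.827% lower. slc26a1, a sulfate transporter gene, was at 103 and 73.4 RPKM in Gata5/6 morphants and 27.5 and 29.4 RPKM in WT (log2 change 1.58 ± 0.21, adjusted p = 0.0036). ca2, a carbonic anhydrase gene of transporting epithelia, was at 3.31 and 3.104 RPKM against 1.49 and 1.57 RPKM in WT (0.73 ± 0.13, adjusted p = 0.0227). atp1b1 (ENSDARG00000013144), a subunit of the sodium pump, averaged 38.2 ± 4.70 RPKM against 60.4 ± 10.7 RPKM in WT (-0.64 ± 0.12, adjusted p = 0.0281). The regulator tbx2 (ENSDARG00000006120), a T-box repressor, averaged 0.770 ± 0.0437 RPKM against 2.00 ± 0.627 RPKM in WT (-0.75 ± 0.17, adjusted p = 0.0497). The slc26a1 call held whichever library was left out, while ca2 and tbx2 lost theirs in 3 and atp1b1 in 2 of the 4 omissions. The count of 4 fell with any 1 of the 4 libraries left out, and with the bud libraries fitted alone limma called 0, and 0.0407% of all genes.

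In Gata5/6 morphants at 6-somites the same transport genes, slc26a1 and ca2, were the 2 of 60 called higher and 0 were called lower, where 1.78% of all genes were called higher and 2.02% lower. slc26a1 was at 47.8 and 47.1 RPKM in Gata5/6 morphants against 6.82 and 10.04 RPKM in WT (2.38 ± 0.21, adjusted p = 0.000352), and ca2 at 6.18 and 7.29 RPKM against 3.58 and 3.71 RPKM in WT (0.73 ± 0.13, adjusted p = 0.0121). Leaving out any 1 of the 4 libraries ended the ca2 call, with adjusted p up to 0.124, and none ended that of slc26a1. When the 6-somites libraries were fitted alone, 7 of the 60 were called higher and 12 lower, where that fit called 9.13% and 11% of all genes. That fit called 3 of the 60 in Gata6 and 12 in Gata5 morphants, where it called 6.29% and 8.47% of all genes.

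Single morphants gave still fewer calls. In Gata6 morphants at bud ca2 alone was called, at 3.21 and 3.39 RPKM against 1.49 and 1.57 RPKM in WT (0.76 ± 0.13, adjusted p = 0.0206), where 0.854% of all genes were called higher and 0.78% lower. That call was lost without either WT library at bud. The count moved in both directions with a library left out, and the share of all genes called in those fits is not given. In Gata5 morphants at 6-somites slc26a1 alone was called, at 26.0 and 19.9 RPKM against 6.82 and 10.04 RPKM in WT (1.35 ± 0.21, adjusted p = 0.0226), where 0.359% of all genes were called higher and 0.115% lower, and leaving out any 1 of the 4 libraries ended this call. In Gata5 morphants at bud and Gata6 morphants at 6-somites limma called 0 of 60. It called 0.136% of all genes higher and 0.224% lower in the first of these comparisons and 0.156% higher and 0.183% lower in the second. At an unadjusted p under 0.05 there were 9 of the 60 (10.7% of all genes) and 11 of the 60 (9.09% of all genes), and limma-voom on recovered reads called 0 in both.

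**Figure D4:**
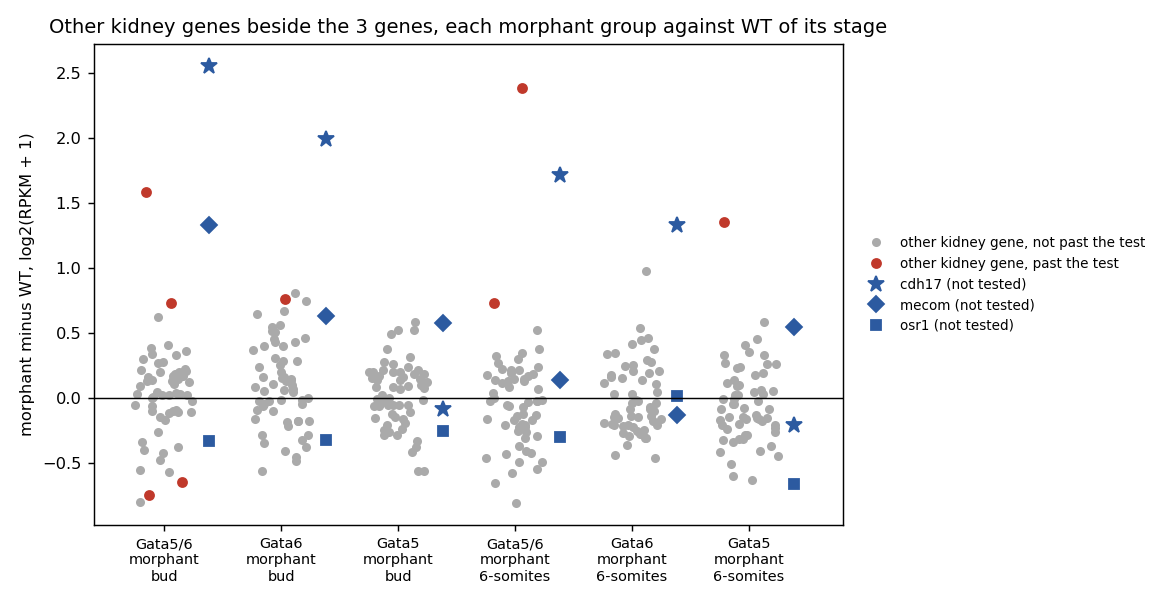
Difference of each morphant group from WT of its stage in log2(RPKM + 1) for 60 other kidney genes (grey, or red where limma's adjusted p was under 0.05), beside cdh17, mecom and osr1 (blue), which were not tested. Most kidney genes lie between -0.5 and 0.5, and slc26a1 is the red point above 1.3 in 3 of the 6 comparisons.

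Over the whole list, the median log2 difference of the 60 kidney genes from WT was 0.04 in Gata5/6 morphants, 0.10 in Gata6 morphants and 0.05 in Gata5 morphants at bud, and -0.03, -0.09 and -0.08 in the same groups at 6-somites. The medians of all genes tested were within 0.03 of 0 in these 6 comparisons. The regulators counted 1 call of 37, the lower tbx2 in Gata5/6 morphants at bud, and 0 of 37 in the other 5 comparisons. The 6 podocyte genes had 0 calls in all 6. These counts come from the fit to all groups, whose shared spread overstates errors at 6-somites. The 6-somites libraries fitted alone called more of the 60, and those calls are not split by list here. At an unadjusted limma p under 0.05 there were 7 regulators in Gata5/6, 11 in Gata6 and 6 in Gata5 morphants at bud, where 14.6%, 19.4% and 10.7% of all genes passed, and 9, 5 and 4 in the same groups at 6-somites, where 17.5%, 9.09% and 11.1% did. The podocyte genes at that level numbered 0 to 2 in each comparison. limma-voom on recovered reads called 1 regulator in Gata5/6 and 3 in Gata6 morphants at bud, where it called 1.93% and 3.12% of all genes. It called 0 regulators in Gata5 morphants at bud (0.515% of all genes) and in Gata5/6, Gata6 and Gata5 morphants at 6-somites (4.27%, 0.494% and 0.501%), and 0 podocyte genes in any comparison.

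The early pronephros regulators pax8, lhx1a, wt1 and pax2 were present, and none was called against WT in the limma fit to all groups. The shared spread of that fit overstates errors at 6-somites, so a missing call there does not show an unchanged level. pax8, a paired box factor of the early intermediate mesoderm, was at 31.5 and 41.0 RPKM in Gata5/6 morphants, 37.2 and 16.7 RPKM in Gata6 morphants and 31.8 and 29.6 RPKM in Gata5 morphants at bud, against 29.4 and 24.6 RPKM in WT. The LIM homeobox gene lhx1a was at 3.28 and 4.39 RPKM in Gata5/6 morphants, 5.21 and 2.16 RPKM in Gata6 morphants and 4.08 and 3.93 RPKM in Gata5 morphants at bud, against 4.41 and 3.66 RPKM in WT. For both genes Gata6 bud 1 was above and Gata6 bud 2 below the WT libraries. At 6-somites lhx1a was at 4.58 and 4.21 RPKM in Gata5/6, 4.89 and 4.52 RPKM in Gata6 and 2.62 and 2.55 RPKM in Gata5 morphants, against 3.79 and 4.42 RPKM in WT. In the same groups pax8 was at 25.7 and 18.0, 24.8 and 19.8, and 14.7 and 14.0 RPKM, against 18.7 and 17.5 RPKM in WT. How these regulators relate to the level of cdh17 was not tested.

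wt1, a zinc finger factor of podocyte progenitors, was at 1.75 and 1.96 RPKM in Gata5/6 morphants, 2.89 and 2.58 RPKM in Gata6 morphants and 1.89 and 1.91 RPKM in Gata5 morphants at 6-somites, against 3.28 and 3.71 RPKM in WT. All 6 morphant libraries were below WT at this stage, at which 50.9% to 60.3% of all genes did not overlap with WT in either direction, with log2 differences of -0.66, -0.27 and -0.63 and adjusted p of 0.0847, 0.852 and 0.201 in Gata5/6, Gata6 and Gata5 morphants. At bud wt1 was at 0.287 and 0.229 RPKM in Gata5/6 morphants, 1.05 and 0.683 RPKM in Gata6 morphants and 0.344 and 0.675 RPKM in Gata5 morphants, against 0.697 and 0.0833 RPKM in WT. The 3 morphant groups overlapped with WT there, with log2 differences of -0.11, 0.45 and 0.15 and adjusted p of 0.884, 0.222 and 0.866. At 6-somites pax2 (ENSDARG00000032578) was at 0.999 and 1.79 RPKM in Gata5/6, 1.18 and 1.34 RPKM in Gata6 and 1.45 and 1.59 RPKM in Gata5 morphants, against 2.22 and 1.90 RPKM in WT. In the same groups pax2 (ENSDARG00000028148) was at 2.19 and 2.22, 2.48 and 2.47, and 2.02 and 1.92 RPKM, against 2.94 and 2.72 RPKM in WT. For both identifiers all 6 morphant libraries were below WT at this stage. The share of all genes with all 6 below WT was not computed. In Gata5/6, Gata6 and Gata5 morphants limma's adjusted p was 0.209, 0.317 and 0.537 for ENSDARG00000032578. It was 0.543, 0.989 and 0.515 for ENSDARG00000028148. At bud the 3 morphant groups overlapped with WT in ENSDARG00000028148, and ENSDARG00000032578 was at no more than 0.229 RPKM in any library.

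Between stages more of the kidney list was called than in any comparison with WT. In Gata5/6 morphants 22 of 60 were called higher at 6-somites and 8 lower, where 15.5% and 5.83% of all genes were. The counts were 20 higher and 5 lower in Gata6 morphants (12.9% and 5.66% of all genes), 27 and 10 in Gata5 morphants (21% and 5.84%) and 30 and 10 in WT (20.3% and 9.57%). Each of these totals depended on single libraries. With a library left out they fell in Gata5/6 morphants, Gata5 morphants and WT, and moved in both directions in Gata6 morphants. The median log2 change of the list was 0.25 in Gata5/6, 0.25 in Gata6 and 0.39 in Gata5 morphants and 0.43 in WT, beside 0.08, 0.09, 0.13 and 0.08 for all genes. With limma 19 genes were called higher and 4 lower in all 4 genotypes. The share of all genes called in all 4 was not computed, so nothing is read from these counts.

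In Gata5/6 morphants the largest rises were in mafb, a factor of podocytes (log2 change 3.08), tbx2 (2.96 for ENSDARG00000018025 and 2.43 for ENSDARG00000006120) and the ligand gene wnt4 (1.96), with adjusted p of 0.00027, 0.000129, 3.86e-06 and 3.79e-05. cdh17 and mecom are not set against these genes, because their own levels in Gata5/6 morphants at bud belong to the contrast that chose them. Genes that rose in WT included tbx2 (ENSDARG00000018025, 15.6 ± 0.0699 RPKM at 6-somites and 1.74 ± 1.12 RPKM at bud, log2 change 2.66 ± 0.33, adjusted p = 0.000141), mafb (2.296) and wnt4 (2.00). Genes that fell in WT included slc26a1 (-1.66), the nuclear receptor gene hnf4a (-1.19) and the forkhead gene foxc1 (-0.89). pax2 (ENSDARG00000032578) and wt1 were among the 19 that rose in every genotype. cdh17 and mecom thus rose in WT, as did 30 of the 60 genes, and osr1 fell, as did 10 of the 60 genes. The test of whether a stage change differed from that in WT called 0 of the 60 in each kind of morphant, and 0.00678%, 0.0203% and 0% of all genes in Gata5/6, Gata6 and Gata5 morphants. At an unadjusted p under 0.05 there were 8, 14 and 5 of the 60 in these groups, against 8.72%, 7.92% and 3.09% of all genes.

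The nearest relatives of the members were scarce. osr2, the paralog of osr1, lay between 0.125 and 0.902 RPKM in all libraries, below the level tested. prdm16 (ENSDARG00000078324), a PR domain relative of mecom, averaged 0.688 ± 0.137 RPKM in Gata5/6 morphants at 6-somites against 0.922 ± 0.123 RPKM in WT (adjusted p = 0.439) and was not called against WT in any group. It rose toward 6-somites in WT (0.70 ± 0.11, limma adjusted p = 0.000868). prdm16 was called higher at 6-somites in every kind of morphant too. In the Gata5/6 morphants its log2 change was 0.65 ± 0.11 (limma adjusted p = 0.0021). The other prdm16 identifier (ENSDARG00000092738) did not pass the filter and averaged 0.154 RPKM at 6-somites and 0.121 RPKM at bud in WT. Of the 5 listed relatives that were tested, limma called 2 higher and 2 lower at 6-somites in WT, where 20.3% and 9.57% of all genes were.

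The genes whose profile was most like that of each member were sought among 9935 tested genes with a unique symbol, as Pearson's r of log2(RPKM + 1) over the 16 libraries. The libraries share stages, genotypes and depth, so r is a description only. For cdh17 they were slc22a21, a gene of the organic cation and carnitine transporter family (r = 0.95), proz, a plasma protein gene (0.93), and pgghg, a glycosidase gene (0.91). proz averaged 7.15 RPKM in Gata5/6, 4.25 in Gata6 and 0.972 in Gata5 morphants at bud, against 0.620 RPKM in WT, and 13.5, 5.92 and 2.20 RPKM in the same groups at 6-somites, against 1.03 RPKM in WT. With the stage means removed, zp3b, an egg coat protein gene (0.96), slc22a21 (0.95) and ca2 (0.95) were nearest to cdh17. zp3b averaged 10.02 RPKM in Gata5/6, 10.99 in Gata6 and 4.62 in Gata5 morphants at bud, against 5.002 RPKM in WT. Since these genes were chosen by r, a pattern shared with cdh17 follows from the choice and is not a result.

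For mecom the nearest were lrrc17, a leucine-rich repeat gene (0.93), the kinase gene sik1 (0.89) and the glycosyltransferase gene galnt16 (0.88). lrrc17 averaged 3.66 RPKM in Gata5/6, 1.08 in Gata6 and 0.786 in Gata5 morphants at bud, against 0.326 RPKM in WT. At 6-somites it averaged 7.84, 2.95 and 6.76 RPKM in the same groups, against 5.33 RPKM in WT. It was thus highest in Gata5/6 morphants at 6-somites, where mecom was highest in Gata5 morphants. With the stage means removed they were lrrc17 (0.88), the palmitoyltransferase gene zdhhc8 (0.87) and the phosphoesterase gene mpped2 (0.86). For osr1 they were adam9b, a metalloprotease gene (0.97), zgc:92242 (0.97) and the hairy-related repressor gene her5 (0.96), and with stage means removed adam9b (0.89), zgc:92242 (0.87) and trnau1apb (0.87). adam9b averaged 3.34 RPKM in Gata5/6, 3.74 in Gata6 and 2.46 in Gata5 morphants at 6-somites, against 3.48 RPKM in WT. At bud it averaged 5.53, 5.70 and 5.42 RPKM in the same groups, against 6.71 RPKM in WT. Likeness of these genes to mecom or osr1 likewise follows from their choice by r. Between the members r was 0.51 for cdh17 and mecom, -0.84 for mecom and osr1 and -0.30 for cdh17 and osr1, and 0.43, -0.69 and -0.07 with the stage means removed.

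Marker lists of other tissues also differed between the groups. The summed RPKM of 19 blood and vessel genes at bud was 79.2 to 84.0 in Gata5/6, 119 to 124 in Gata6 and 90.3 to 103 in Gata5 morphants, against 106 to 111 in WT. It was thus lower than in WT in Gata5/6 and higher in Gata6 morphants at bud. Of the 13 tested genes of this list, limma called 1 lower in Gata5/6 and 3 higher in Gata6 morphants at bud. In these comparisons 0.827% of all genes were called lower and 0.854% higher. At 6-somites the blood and vessel sum was 167 to 170 in Gata5/6, 149 to 153 in Gata6 and 182 to 184 in Gata5 morphants, against 180 to 184 in WT. The summed RPKM of 22 yolk syncytial and enterocyte-like genes at 6-somites was 2530 to 2559 in Gata5/6, 3603 to 3802 in Gata6 and 3343 to 3640 in Gata5 morphants, against 3494 to 3531 in WT. Of the 20 tested genes of this list, limma called 5 higher and 1 lower in Gata5/6 morphants, where 1.78% and 2.02% of all genes were. Their median log2 difference was 0.34, so the lower sum does not describe the typical gene of the list. That of 19 somite genes at 6-somites was 555 to 587 in Gata5/6, 503 to 523 in Gata6 and 594 to 597 in Gata5 morphants, against 579 to 610 in WT. The lists of endoderm and of heart and lateral plate hold gata5 itself. Without it, the 15 heart and lateral plate genes summed at 6-somites to 85.0 to 88.3 RPKM in Gata5/6, 92.3 to 94.8 in Gata6 and 87.3 to 88.2 in Gata5 morphants, against 103 to 104 RPKM in WT. The 6 other endoderm genes summed at 6-somites to 62.9 to 67.7 RPKM in Gata5/6, 59.6 to 61.7 in Gata6 and 48.0 to 48.7 in Gata5 morphants, against 54.5 to 56.2 RPKM in WT. At bud the same endoderm genes summed to 104 to 117 RPKM in Gata5/6, 97.4 to 105 in Gata6 and 99.7 to 103 in Gata5 morphants, against 100.4 to 126 RPKM in WT. The endoderm sum was thus above WT at 6-somites in both groups with the Gata6 label and overlapped with WT in them at bud. Of the 6 tested genes of the full endoderm list, limma called gata5 alone in Gata5/6 and 0 in Gata6 morphants at 6-somites. In Gata6 morphants 0.156% of all genes were called higher and 0.183% lower. At this stage 60.3% of all genes in Gata5/6 and 50.9% in Gata6 morphants did not overlap with WT. No marker is listed at 0 in any library. The part of these tissues in the levels of cdh17, mecom and osr1 was not tested.

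Scores on the first principal component and the level of mdm2 also differed between some groups. The component was drawn from all genotypes together, so its scores need not measure developmental timing alone. First-component scores at 6-somites were 14.6 and 21.8 in Gata5/6, 25.8 and 25.5 in Gata6 and 34.9 and 37.4 in Gata5 morphants, against 38.4 and 34.7 in WT, so the groups with the Gata6 label lay nearer to the bud libraries and the Gata5 morphants overlapped with WT. At bud they were -37.3 and -36.0 in Gata5/6, -14.6 and -26.9 in Gata6 and -30.5 and -23.8 in Gata5 morphants, against -24.6 and -39.6 in WT. The p53 target gene mdm2 was at 8.31 and 3.23 RPKM in Gata5/6, 16.1 and 5.18 RPKM in Gata6 and 2.72 and 3.57 RPKM in Gata5 morphants at bud, against 3.32 and 2.41 RPKM in WT. Within a group the pool with more mdm2 also had more cdh17, except in WT at bud and in Gata5 morphants at 6-somites. In those groups the pool with more mdm2 had less cdh17. Each of these orders rests on 2 pools, and in some the cdh17 values differed by about their counting error or less. Among the agreeing groups these were Gata5 morphants at bud (67 and 69 reads) and Gata6 morphants at 6-somites (953 and 910 reads). Among the others it was Gata5 morphants at 6-somites (241 and 197 reads). In Gata5/6 morphants at 6-somites, an agreeing group, the mdm2 values themselves were close, and the counting error of mdm2 is not given. How often other genes share such an order with cdh17 was not computed. At 6-somites mdm2 was at 5.43 and 5.54 RPKM in Gata5/6, 8.56 and 6.44 RPKM in Gata6 and 9.05 and 7.35 RPKM in Gata5 morphants, against 3.62 and 3.37 RPKM in WT. The part of timing and of the p53 response in the levels was not tested.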

How the data were processed

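Per the labels and the series design, polyA RNA was read on an Illumina Genome Analyzer IIx as 36-base single reads. The deposited values are RPKM, computed by the authors, and Zv9 is the build in the submitters' processing notes. Not given in the sources used here are the aligner, the annotation release, the counting tool and any use of strand. Gene coordinates and sequences on that build were not used here. Gene names came from a table of identifiers, which named 19258 of 27257. No value was at 0. Spacing of the RPKM gave back whole reads for 99.28% of the 25530 genes in all libraries, within 0.01 reads of a whole number, from which depth and counting error follow.

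The 14751 genes that reached 1 RPKM in 2 or more of 16 libraries were tested as log2(RPKM + 1) with limma 3.58.1 (trend) in R 4.3.3, with 1 mean for each of 8 groups and 8 residual degrees of freedom. Tests were two-sided, Benjamini-Hochberg adjusted over all genes of a comparison, at 0.05. Libraries differed more at bud, so the shared spread understates errors there and overstates them at 6-somites. A library left alone in its group is assumed to vary like the other groups. The fit was checked on simulated data.

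The 3 genes and the gene lists were chosen with earlier results of these data known. Named were the 3 members, up to 4 called kidney genes with the largest change in each direction, the 3 nearest profiles by r, osr2, prdm16 and gata5. A gene that this rule names is not reported here. The pax8, lhx1a, wt1 and pax2 values were given as defining kidney markers, and mdm2 and proz, zp3b, lrrc17 and adam9b levels after their values were seen. Alternatives were a pseudocount of 0.1 RPKM, no filter, a filter at 5 RPKM, median-of-ratios scaling, limma-voom on recovered reads, the replicate block, single-stage fits and each library left out.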

Additional observations from a re-analysis of the deposited data

How the results depend on the processing

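Stage changes of the 3 genes were log2 values in 12 comparisons. Of their alternatives, 104 kept direction and side of the threshold, 9 lost the call, 1 gained it and 5 turned the direction. mecom in Gata5/6 morphants (0.00202) was -0.0776 with median-of-ratios scaling, -0.0897 with limma-voom and -0.14 to 0.14 with a library left out. mecom in Gata6 morphants was 0.44 without a filter (adjusted p = 0.0682), 0.37 with median-of-ratios scaling (0.0773) and 0.33 to 0.55 with a library left out. With a library left out, cdh17 in Gata5/6 morphants was -0.16 to 0.62 and osr1 in Gata6 morphants -0.51 to -0.41. Median-of-ratios scaling lowered the stage changes of all genes by 0.10 in Gata5/6, 0.10 in Gata6, 0.15 in Gata5 morphants and 0.09 in WT. The cause of these shifts was not tested. Differences of the members from WT moved by more than the spread of the libraries in 9 of 108 alternatives, all with the pseudocount of 0.1.

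Called kidney genes in Gata5/6 morphants at bud (4) were 0 with the bud libraries alone and fewer than 4 with any library left out. In Gata6 morphants at bud (1) they were 2 with a pseudocount of 0.1, 2 with median-of-ratios scaling, 6 with limma-voom, 0 with the bud libraries alone and 0 to 7 with a library left out. In Gata5/6 morphants at 6-somites (2) they were 5 without a filter, 4 with limma-voom, 19 with the 6-somites libraries alone and fewer than 2 with any library left out. With the 6-somites libraries alone they were 3 in Gata6 and 12 in Gata5 morphants (0 with any library left out of the fit to all groups in Gata5), where that fit called 6.29% and 8.47% of all genes. Between stages the filter at 5 RPKM, which tests fewer genes, gave 17 in Gata5/6, 15 in Gata6, 20 in Gata5 morphants and 22 in WT, and a library left out gave 12 to 36 in Gata6 and 23 to 29 in Gata5 morphants. For the pseudocount, the filters, median-of-ratios scaling and the libraries left out, the share of all genes called is not given. Nothing about kidney genes is therefore read from those counts. Of the alternatives for the kidney genes named, 363 kept the call and 49 lost it.

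Same-numbered libraries are linked by a number alone. Their deviations had correlations of 0.23 to 0.56 between morphants and WT and -0.14 to 0.07 between stages, and the second principal component was higher for replicate 1 in all 4 groups at bud. With the replicate block 3 kidney genes were called in Gata6 morphants at bud, against 1, and the share of all genes called with the block is not given. With crossed numbers, a fit chosen after seeing the data, 38 were called between stages in Gata5 morphants, against 37. Depth limits low genes such as cdh17 in WT at bud most. The 2 libraries of a group bound the precision of every SD.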
